A study of Sus scrofa with 12 samples.

Results

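The miR-10, miR-99, miR-100 and miR-125 microRNAs of pig liver are 7 of the 774 entries in a deposited table of small RNA counts. They were chosen by name: the porcine entries of miR-10a, miR-10b, miR-99a, miR-99b, miR-100, miR-125a and miR-125b, without those named as a 3p strand. Another 14 entries of the table carry the same family names but fall outside this choice, as 3p strands or under names without the porcine prefix ssc. Livers of pigs (Sus scrofa) of the Hezuo and Bama breeds were sampled on day 15, in 4 groups of 3 libraries each. Hezuo cold and Bama cold pigs were kept under cold stress at -15 ± 2 °C, and Hezuo normal and Bama normal pigs at 23 ± 2 °C. The labels give 1 rearing protocol for all pigs, with temperature as its only stated difference. The study asked which RNAs respond to cold and which relate to the cold resistance of the Hezuo breed. The labels number the pigs of each group 1 to 3 and do not state whether a number names the same animal at both temperatures, and the sources used here give neither sex nor age. A p-value therefore measures the spread between these libraries.

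MicroRNAs are short RNAs that guide Argonaute proteins to messenger RNAs, mostly through the seed, which is bases 2 to 8 counted from the 5′ end. The miR-10 genes lie inside the HOX clusters of vertebrates, and in the RefSeq annotation of the pig assembly Sscrofa11.1 MIR10A stands between HOXB3 and HOXB5 and MIR10B stands beside HOXD3. The other members lie in clusters of a miR-99 type, a let-7 type and a miR-125 type gene. In that annotation MIR99B, MIRLET7E and MIR125A are consecutive genes, as are MIR100, MIRLET7A-1 and MIR125B-1, and MIR99A is followed by MIRLET7C. In human and mouse cells the miR-99 and miR-100 microRNAs are known to repress mTOR and the IGF1 receptor, and miR-125b to repress p53 and LIN28. In human a second miR-125b gene lies beside MIR99A and LET7C, so mature miR-125b can come from more than 1 gene.

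The mature sequences of the 7 entries, as deposited with T for U, are shown with the seed in capitals because they fall into 3 seed groups and because some differ by a single base, which decides how well their counts can be told apart.
ssc-miR-10a-5p: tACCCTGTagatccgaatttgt
ssc-miR-10b: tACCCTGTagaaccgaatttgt
ssc-miR-99a-5p: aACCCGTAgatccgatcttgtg
ssc-miR-99b: cACCCGTAgaaccgaccttgcg
ssc-miR-100: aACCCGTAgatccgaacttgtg
ssc-miR-125a: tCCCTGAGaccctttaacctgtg
ssc-miR-125b: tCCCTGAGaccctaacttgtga
Counted from the 5′ end, miR-10a-5p and miR-10b differ only by T12A, and miR-99a-5p and miR-100 only by T16A. MiR-99b differs from miR-99a-5p at 4 positions. How the authors assigned tags with a sequencing error at such a base is not given in the sources used here, so the split of counts between 1-base neighbours is uncertain.

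The libraries held 7184168 to 10384074 listed counts, and 460 entries passed the filter on low counts, all 7 members among them. Hepatocyte markers were present: miR-122-5p, the hepatocyte microRNA, stood at 394777 to 700036 CPM (counts scaled to a common library size after TMM adjustment). Among markers of other cells, the endothelial miR-126-3p averaged 12661 CPM, the stromal miR-143-3p 18473 CPM, the erythroid miR-451 931.3 CPM, the immune-cell miR-142-3p 346.6 CPM, the epithelial miR-200b 56.6 CPM and the muscle miR-1 9.27 CPM. None of the tested markers of these cell types passed for cold over both breeds or for breed over both temperatures. In bulk tissue, fewer cells of a type and less RNA per cell cannot be told apart.

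MiR-99a-5p was the dominant member and miR-10b the scarcest. The 7 entries together took 0.966% to 1.26% of the listed counts of a library, and miR-99a-5p alone 58.3% to 71.4% of that. It averaged 7152 CPM over the 12 libraries, rank 12 in abundance among the entries tested. MiR-100 averaged 1464 CPM, miR-10a-5p 1231 CPM, miR-125b 509.6 CPM, miR-125a 317.7 CPM, miR-99b 140.6 CPM and miR-10b 130.5 CPM. MiR-99a-5p exceeded every other member in 12 of 12 libraries, and miR-125b exceeded miR-125a in 12 of 12. The order was less firm for neighbours: miR-100 exceeded miR-10a-5p in 9 of 12 libraries and miR-99b exceeded miR-10b in 9 of 12. The libraries with less miR-100 than miR-10a-5p were all of the Bama breed (Bama normal 1 and 3 and Bama cold 3). All these values are read abundances, which adapter ligation can also set, so an order between different sequences is not an order of molecules.

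**Figure D1:**
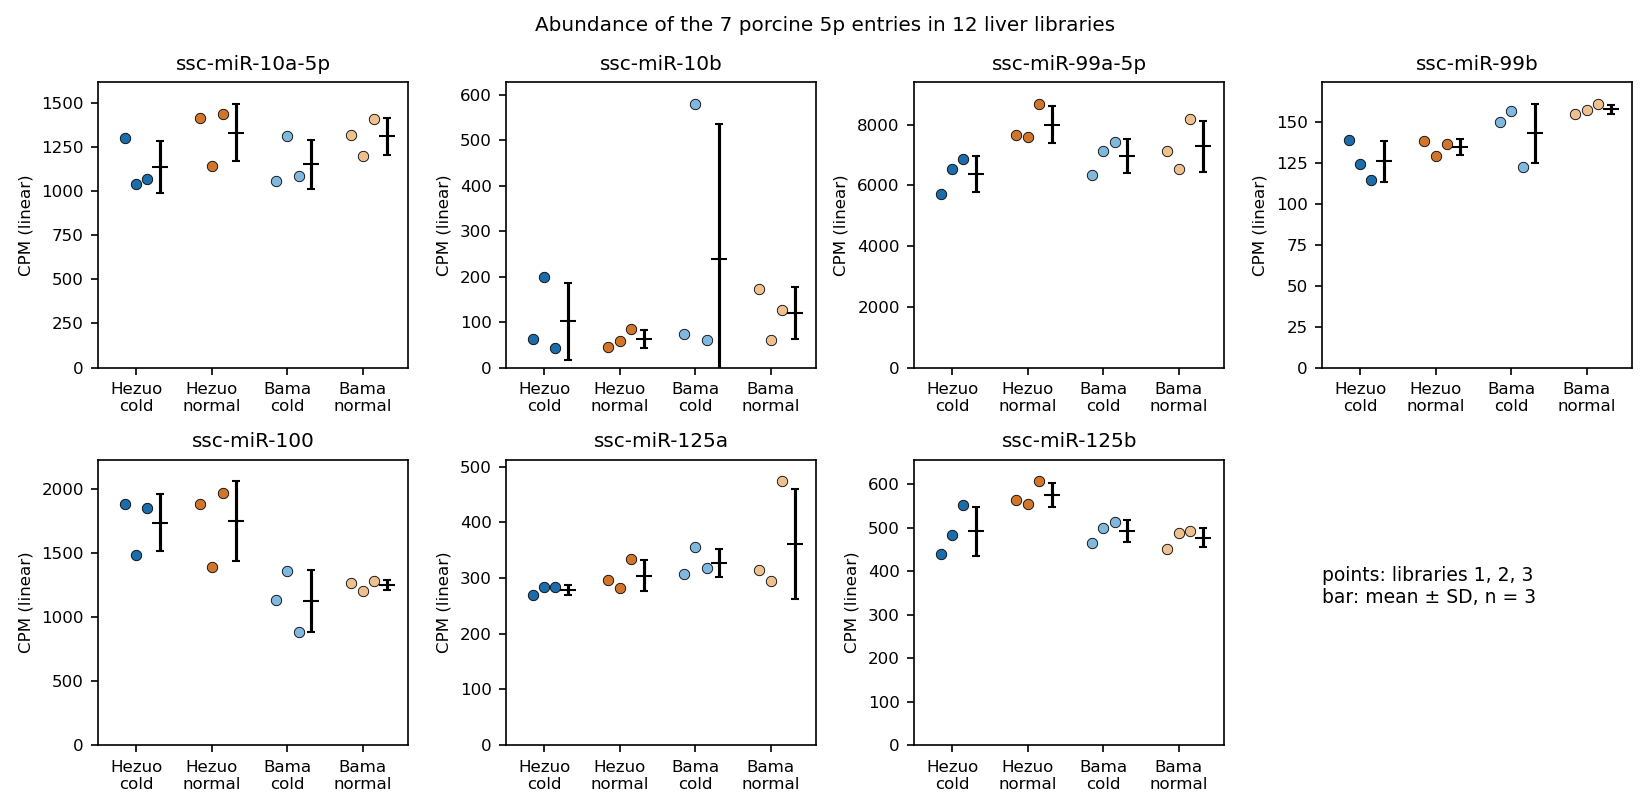
CPM (linear axes) of the 7 entries in each library, by group, with the mean ± SD of 3 libraries as a bar; the SD bar of miR-10b in Bama cold reaches below 0 and is cropped there. All 6 Hezuo libraries of miR-100 lie above all 6 Bama libraries, and 1 Bama cold library holds 580.9 CPM of miR-10b.

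MiR-100 was higher in Hezuo than in Bama livers. It had 1877, 1481 and 1850 CPM in Hezuo cold livers, against 1133, 1359 and 879.1 CPM in Bama cold livers. It had 1882, 1393 and 1970 CPM in Hezuo normal livers, against 1267, 1203 and 1277 CPM in Bama normal livers. Every Hezuo library was above every Bama library, although the lowest of Hezuo (1393) and the highest of Bama (1359) were close. Averaged over both temperatures, miR-100 was higher in Hezuo by 0.56 log2 units (1.47-fold, SE 0.11, edgeR adjusted p = 0.00635). It was the only member of the 7 called in this contrast, in which 51 of 460 entries passed (11.1%, and 6.74% as higher), and 4.57% of entries had 6 Hezuo libraries all beyond the 6 Bama libraries.

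Taken by temperature, the difference was 0.63 (SE 0.16, edgeR adjusted p = 0.0436) under cold, where miR-100 was 1 of 7 members called and 4.35% of all entries passed. It was 0.49 (SE 0.16, adjusted p = 0.0977) at normal temperature, where 3.7% of entries passed and 0 of 7 members did. Groups did not overlap for 2 of 7 members under cold (miR-100 and miR-125a, against 20.2% of all entries) and for 3 of 7 at normal temperature (miR-100, miR-125b and miR-99b, against 22.2%). The cold response of miR-100 differed between the breeds by 0.14 (Hezuo minus Bama, SE 0.23, adjusted p = 0.998). The call averaged over temperatures held in 21 of 21 alternatives (adjusted p 0.00158 to 0.0268). The call under cold alone held in 10 of 22. It was lost without Bama cold 1 (adjusted p = 0.147) or 3 (0.139), Hezuo cold 1 (0.174) or 3 (0.155), Hezuo normal 1 (0.0794), or any 1 of the 3 Bama normal libraries (0.0586 to 0.0734). It was also lost with DESeq2 size factors (0.0516), limma-voom (0.053) and a fit of those groups only (0.0587), the remaining loss being a fit that blocks on pig number. The 3 erythroid markers had a median breed difference of 0.68 in the same direction, with none of them called. Their summed level was 665 to 2426 CPM in Hezuo cold, 626 to 1866 CPM in Hezuo normal, 533 to 1336 CPM in Bama cold and 435 to 989 CPM in Bama normal livers. Over the 12 libraries miR-100 correlated with that sum at a Pearson r of 0.16 and a Spearman rho of 0.16. With the summed markers of the other cell types r was -0.43 (myeloid) to 0.38 (epithelial). The part of the erythroid markers in the miR-100 difference was not tested.

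MiR-99a-5p, which shares the seed of miR-100 and all but 1 base, had 5730, 6538 and 6850 CPM in Hezuo cold livers and 7673, 7606 and 8690 CPM in Hezuo normal livers. In Bama cold livers it had 6330, 7137 and 7424 CPM, and in Bama normal livers 7121, 6546 and 8184 CPM. The breeds overlapped at both temperatures, and the difference between them averaged over temperatures was 0.00 (SE 0.08, adjusted p = 0.989). The count of miR-99a-5p divided by that of miR-100 in the same library needs no scaling between libraries. This ratio was 3.05 to 5.46 in Hezuo and 5.25 to 8.44 in Bama, with a mean log2 ratio of 2.04 ± 0.28 in Hezuo and 2.59 ± 0.26 in Bama (SD, n = 6 each). The difference of -0.55 had an exact two-sided permutation p of 0.01 with labels permuted within temperature, and an adjusted p of 0.04 over the 8 ratio tests planned.

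In the miR-125 group, related to the worm microRNA lin-4, miR-125a and miR-125b leaned in opposite directions between the breeds, averaged over temperatures. MiR-125a, encoded beside miR-99b, had 268.6, 284.0 and 284.5 CPM in Hezuo cold livers, against 307.5, 355.3 and 318.1 CPM in Bama cold livers. It had 295.8, 282.0 and 334.7 CPM in Hezuo normal livers, against 314.1, 294.6 and 474.0 CPM in Bama normal livers. The groups did not overlap under cold and did at normal temperature, where 1 Bama library stood above the rest. MiR-125b, from the clusters of miR-100 and in human also of miR-99a, had 440.6, 484.4 and 552.6 CPM in Hezuo cold livers, against 464.6, 500.1 and 514.2 CPM in Bama cold livers. It had 564.6, 554.8 and 607.5 CPM in Hezuo normal livers, against 451.5, 488.3 and 491.6 CPM in Bama normal livers, groups that did not overlap.

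Neither member passed for breed alone: averaged over temperatures, miR-125a was at -0.24 (SE 0.11, edgeR adjusted p = 0.19) and miR-125b at 0.13 (SE 0.07, adjusted p = 0.286). Their ratio within a library, miR-125a to miR-125b, was 0.508 to 0.61 in Hezuo and 0.603 to 0.964 in Bama. Its mean log2 value was -0.87 ± 0.11 in Hezuo and -0.51 ± 0.24 in Bama (SD, n = 6 each), a difference of -0.35 (exact two-sided permutation p = 0.005, adjusted 0.04 over 8 tests), and no arrangement can give a p below that 0.005. Without any 1 of the 3 Hezuo normal libraries that adjusted p was 0.08 to 0.1, and for miR-99a to miR-100 it was 0.06 to 0.1 without any 1 of 6 libraries (Bama normal 1 and 3, Bama cold 3, Hezuo normal 1 and 3, Hezuo cold 1). Adjusted over all 16 ratio tests, including those on longer forms given further on, both stand at 0.08.

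**Figure D2:**
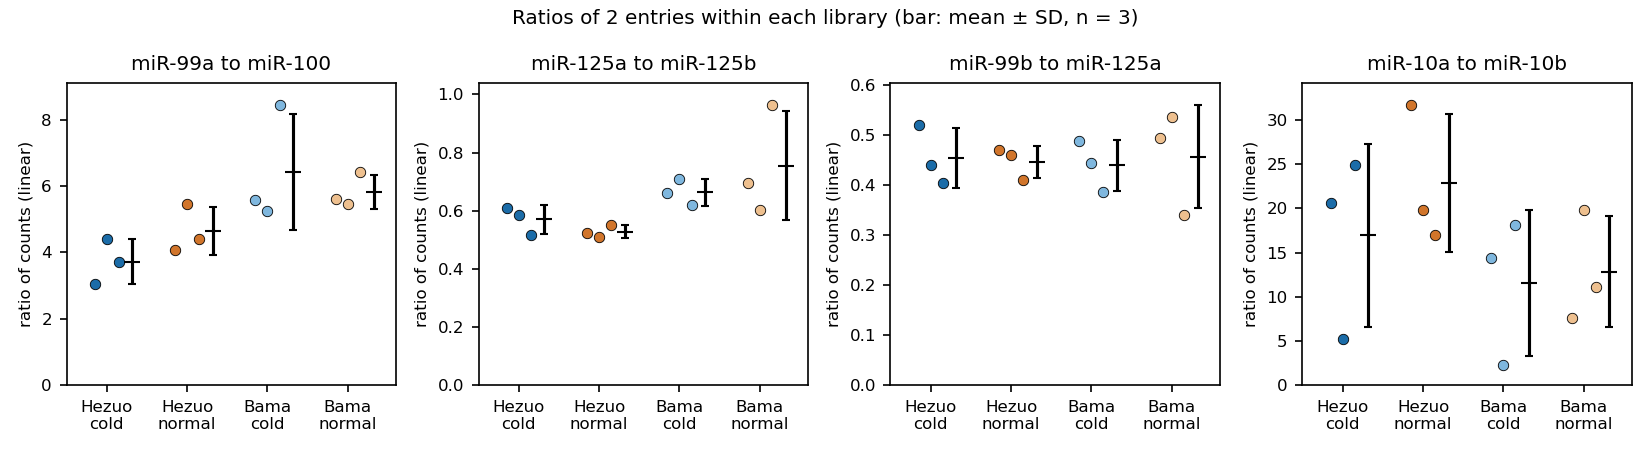
Ratio of the counts of 2 entries within each library (linear axes), by group, with the mean ± SD of 3 libraries as a bar. MiR-99a to miR-100 lies at 3.05 to 5.46 in Hezuo and 5.25 to 8.44 in Bama, while miR-99b to miR-125a overlaps throughout.

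MiR-99b, the third microRNA with the miR-99 seed, had 139.4, 124.6 and 114.7 CPM in Hezuo cold livers and 138.8, 129.4 and 136.7 CPM in Hezuo normal livers. It had 149.9, 157.2 and 122.6 CPM in Bama cold livers and 155.1, 157.7 and 161.0 CPM in Bama normal livers. At normal temperature all Hezuo libraries were below all Bama libraries. Averaged over temperatures the breed difference was -0.20 (SE 0.09, edgeR adjusted p = 0.169), which did not pass. Its ratio to miR-125a, the other microRNA of its cluster, was 0.403 to 0.519 in Hezuo and 0.340 to 0.535 in Bama. The difference in mean log2 ratio was 0.02 (exact two-sided permutation p = 0.895, adjusted 0.94).

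The let-7 microRNAs, repressors of growth and of LIN28, are encoded between or beside the members. MiR-99a-5p at 0.00 stands beside let-7c, which was higher in Hezuo by 0.27 (SE 0.07, edgeR adjusted p = 0.0278). MiR-100 at 0.56 stands beside let-7a at 0.01 (SE 0.07, adjusted p = 0.962), which has other genes too, and miR-99b at -0.20 beside let-7e at -0.30 (SE 0.15, adjusted p = 0.214). Of these 3 neighbours 1 passed as higher, where 6.74% of all entries did, and the alternatives were not run on them. Differences between a member and its let-7 neighbour were not tested.

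**Figure D3:**
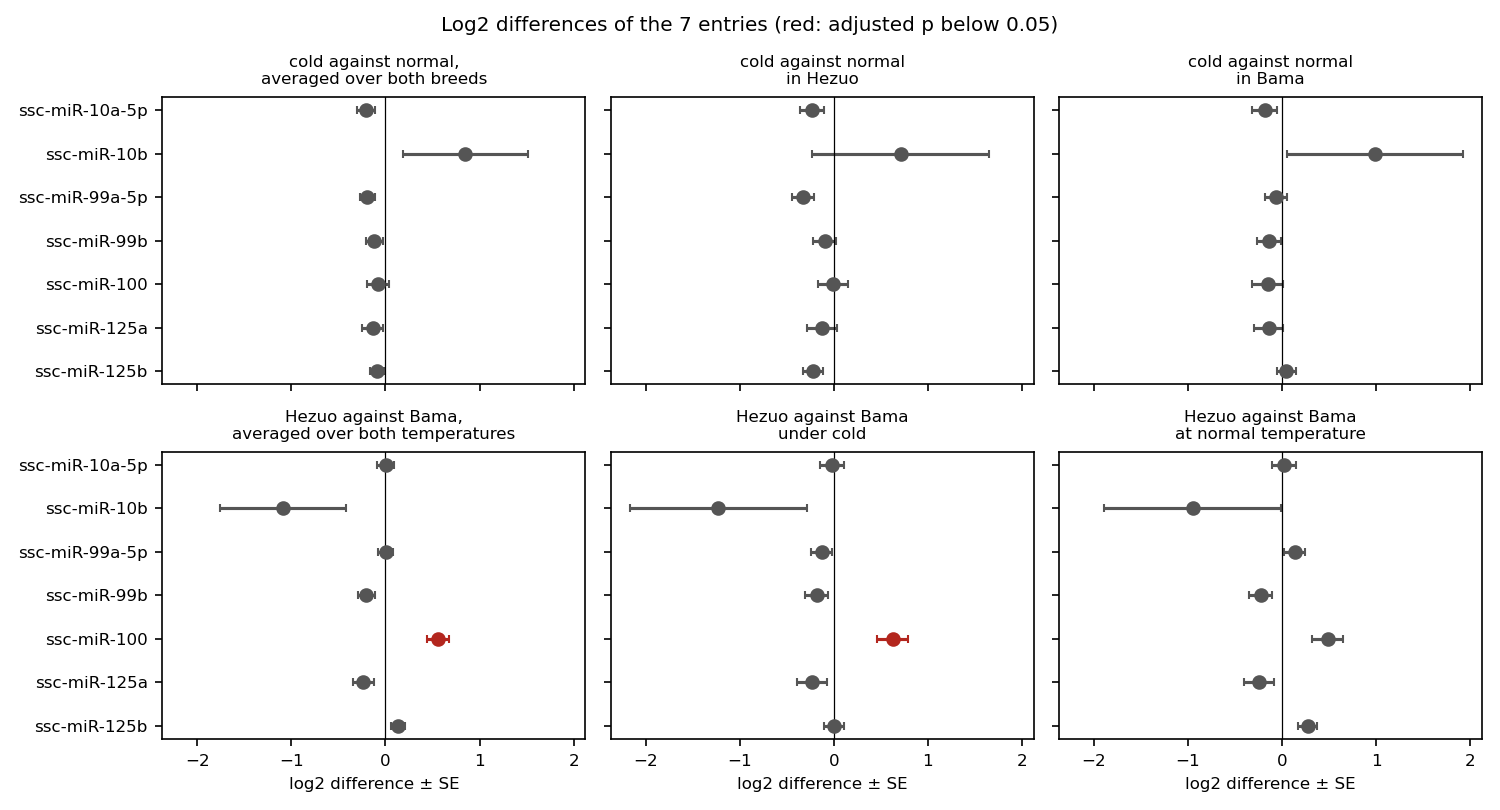
Log2 differences of the 7 entries with their standard errors, for cold against normal (upper panels) and Hezuo against Bama (lower panels), from 1 fit over all 12 libraries. MiR-100 in Hezuo against Bama, averaged and under cold, is the member past an adjusted p of 0.05, and miR-10b has the widest errors.

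Cold called none of the 7. Averaged over both breeds, 10 of 460 entries passed (2.17%) and 0 of 7 members by edgeR, with separate groups for 0 of 7 members (0.87% of all entries) and 2 members at an unadjusted p below 0.05. Among all entries 17.8% were below that unadjusted level. The 2 members were miR-10a-5p at -0.21 (SE 0.09, adjusted p = 0.253) and miR-99a-5p at -0.20 (SE 0.08, adjusted p = 0.224). DESeq2 and limma-voom also called 0 members. MiR-125a was at -0.13 (SE 0.11), miR-99b at -0.12 (SE 0.09), miR-125b at -0.09 (SE 0.07) and miR-100 at -0.08 (SE 0.11). Of the 7 values 6 were below 0, with a median of -0.12 against -0.03 for all entries tested, of which 45.2% were above 0. Without Bama normal 3, 5 were below 0 and the median was -0.04, against 0.0047 for all entries. Scaled to library totals, 5 were below 0 and the median was -0.04, against 0.05 for all entries.

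Within Hezuo the lower level of miR-99a-5p under cold was the largest of the 6 negative values. All 3 cold livers (5730 to 6850 CPM) were below all 3 normal livers (7606 to 8690 CPM), a difference of -0.33 (SE 0.11, edgeR adjusted p = 0.37) that ranged from -0.34 to -0.15 over 22 alternatives, the smallest size with library totals. MiR-125b was at -0.22 (SE 0.11, adjusted p = 0.516) with groups that just did not overlap. Those were 2 of 7 members with separate groups, where 15.4% of all entries had them and 0 of 460 passed the edgeR test (43 or 9.35% at an unadjusted p below 0.05). Scaled to library totals, 3 of the 7 Hezuo values were below 0 in place of 6, with all entries at a median of 0.13.

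In Bama, miR-99a-5p was at -0.06 (SE 0.11, edgeR adjusted p = 0.847) and miR-125b at 0.05 (SE 0.11, adjusted p = 0.881), and 0 of 7 members had separate groups, against 16.7% of all entries. Of all entries 1.09% were called in Bama, and 0 members, also by DESeq2 and limma-voom, with 0 members and 14.6% of all entries at an unadjusted p below 0.05. The difference between the breeds' responses was -0.26 for miR-99a-5p (SE 0.16, adjusted p = 0.961) and -0.27 for miR-125b (SE 0.15, adjusted p = 0.921), neither of which passed. For this difference 0 of 460 entries passed by edgeR, with 25 or 5.43% at an unadjusted p below 0.05.

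MiR-10a-5p, whose gene sits among the HOXB genes, had 1302, 1036 and 1068 CPM in Hezuo cold livers and 1415, 1142 and 1435 CPM in Hezuo normal livers. It had 1053, 1310 and 1086 CPM in Bama cold livers and 1319, 1200 and 1406 CPM in Bama normal livers. Cold and normal libraries overlapped in both breeds, and the breeds overlapped at both temperatures (0.00, SE 0.09, adjusted p = 0.989 averaged). Let-7c, the neighbour of miR-99a-5p, fell by 0.31 under cold over both breeds (SE 0.07, edgeR adjusted p = 0.04). Among all entries 2.17% passed in that contrast. The other let-7 neighbours did not pass: let-7a was at -0.13 (SE 0.07, adjusted p = 0.322) and let-7e at -0.36 (SE 0.15, adjusted p = 0.229). Within single breeds let-7c did not pass (edgeR adjusted p = 0.552 in Hezuo and 0.0552 in Bama). The alternatives were not run on let-7c.

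MiR-10b, the HOXD partner of miR-10a, varied between pigs of the same group far more than any other member. It had 63.1, 199.3 and 42.8 CPM in Hezuo cold livers and 44.6, 57.6 and 84.2 CPM in Hezuo normal livers. It had 73.3, 580.9 and 60.0 CPM in Bama cold livers and 172.8, 60.5 and 127.3 CPM in Bama normal livers. Pig 2 of each cold group was the highest of its group, and the highest library of all held 13.6 times the CPM of the lowest. In the other 6 members the highest library was 1.38 to 2.24 times the lowest. The within-group SD of log2(CPM + 2) was 1.15 for miR-10b and 0.10 to 0.23 for the others. None of the 100 entries with a mean of at least 100 CPM had a larger one, and among all 460 tested 1 had, miR-4331-5p. These CPM values rest on 343 to 4280 counts per library.

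**Figure D4:**
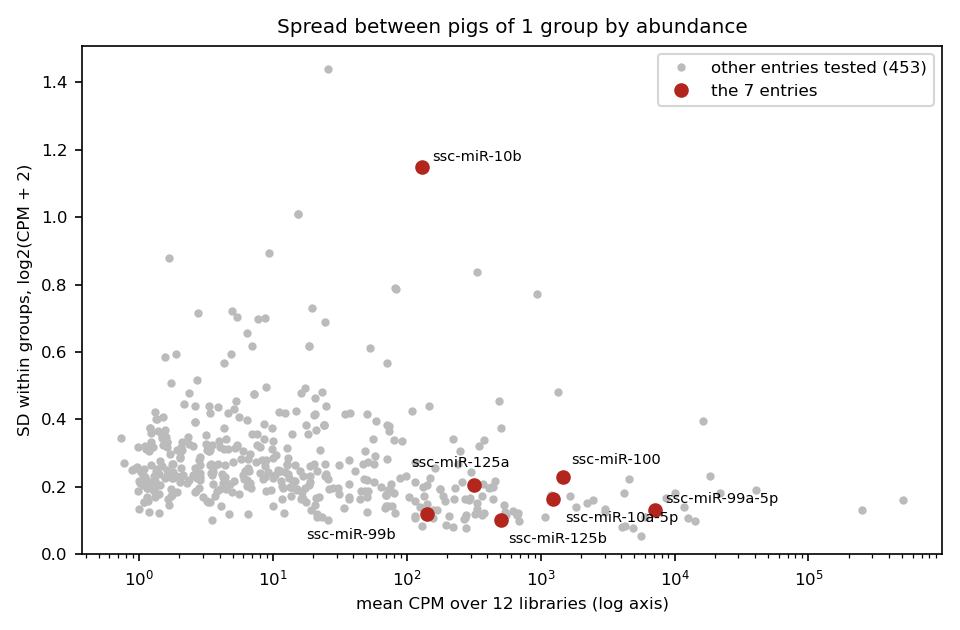
Standard deviation of log2(CPM + 2) within groups against mean CPM (log axis) for the entries tested, with the 7 members in red. MiR-10b stands at 1.15, and the other members between 0.10 and 0.23.

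With this spread no contrast of miR-10b passed. Cold against normal over both breeds was 0.85 (SE 0.66, edgeR adjusted p = 0.558), and -0.03 (adjusted p = 0.981) without Bama cold 2. In Bama alone it was 0.98 (SE 0.94, adjusted p = 0.711), and -0.81 (adjusted p = 0.736) without that library. Hezuo against Bama averaged over temperatures was -1.09 (SE 0.67, adjusted p = 0.35), and -0.19 (adjusted p = 0.838) without Bama cold 2. Under cold alone it was -1.23 (SE 0.94, adjusted p = 0.621), which turned to 0.59 (adjusted p = 0.758) without Bama cold 2. The ratio of miR-10a-5p to miR-10b was 2.26 in Bama cold 2 and 5.20 in Hezuo cold 2, against 7.63 to 31.7 in the other 10 libraries.

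The stromal markers did not all follow miR-10b. The list of 10 stellate, fibroblast and smooth muscle markers (all 10 tested) summed to 17827 to 22584 CPM in Hezuo cold, 17700 to 20850 CPM in Hezuo normal, 20437 to 28159 CPM in Bama cold and 21738 to 29659 CPM in Bama normal livers. Over the 12 libraries miR-10b correlated with that sum at a Pearson r of 0.48 and a Spearman rho of 0.71, a description over libraries that share their scaling. Most of that sum was miR-143-3p, which averaged 18473 CPM. It had 20304 CPM in Bama cold 2, below the 24331 CPM of Bama cold 1, where miR-10b had 73.3 CPM. In Hezuo cold 2 miR-143-3p was at 19293 CPM, the highest of its group. MiR-145-3p, a stromal marker of the list, was most like miR-10b of 222 entries outside the families (r = 0.77, rho = 0.79). This likeness was looked up after the values of miR-10b were seen. Its level was 96.8 CPM in Bama cold 2, the highest of 12 libraries, and 56.1 CPM in Hezuo normal 2, the lowest. The other strand of the same hairpin, miR-145-5p, did not show that order, with 72.1 CPM in Bama cold 2 and 77.7 CPM in Hezuo normal 2. Apart from miR-145-3p, no marker of the list had its highest level of the 12 libraries in Bama cold 2. The part of stromal cells in the spread of miR-10b was not tested. None of the 10 markers passed for breed or for cold by edgeR (medians -0.16 for Hezuo against Bama and -0.05 for cold). The part of these markers in the miR-100 difference was not tested either.

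By the same measure, Pearson's r of log2(CPM + 2) over 12 libraries, the entries most like miR-100 were miR-340-y (0.87), miR-204-x (0.86), miR-204 (0.85), miR-340 (0.80) and 1 predicted microRNA of the table (0.78). Those most like miR-99a-5p were miR-10014-x (0.84), the hepatocyte miR-122-5p (0.83), miR-744 (0.72), let-7e (0.69) and let-7a (0.67). Those most like miR-125b were miR-101 (0.78), miR-101-y (0.77), miR-10014-x (0.74), miR-122-x (0.64) and miR-92a (0.63). Among the members themselves r was 0.73 between miR-99a-5p and miR-125b, 0.54 between miR-99b and miR-125a, 0.40 between miR-100 and miR-125b, 0.17 between miR-10a-5p and miR-10b, and 0.05 between miR-99a-5p and miR-100. The points share the breeds and the scaling, so these values describe the table only.

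Of the 14 related entries, 8 overlap a member in sequence. The 5 most abundant of them, and the one whose name and letters differ in kind, show where tags of the members were listed under other names, with the seed in capitals.
miR-99-z: aACCCGTAgatccgatcttgtgaa
miR-10-x: aCCCTGTAgatccgaatttgtga
miR-99-x: aACCCGTAgatccgatcttgtat
miR-125-z: tCCCTGAGaccctaacttgtgaaa
miR-100-z: aACCCGTAgatccgaacttgtgaa
miR-100-x: cAACCCGTagatccgatcttgt
MiR-99-z, miR-100-z and miR-125-z begin with the 22 bases of miR-99a-5p, miR-100 and miR-125b and run on at the 3′ end. MiR-10-x begins 1 base inside miR-10a-5p, so its bases 2 to 8 read CCCTGTA in place of ACCCTGT. MiR-100-x begins 1 base before miR-99a-5p and follows the letters of miR-99a-5p, not of miR-100, with 21 bases shared, and has the seed AACCCGT.

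Counts of miR-10-x, which are not part of those of miR-10a-5p, amounted to 20.4% ± 2.36 of the miR-10a-5p count in Hezuo cold, 19.0% ± 2.05 in Hezuo normal, 20.6% ± 2.93 in Bama cold and 18.9% ± 3.11 in Bama normal livers (SD, n = 3 each). MiR-99-z amounted to 4.63% ± 0.284 of miR-99a-5p in Hezuo cold and 3.49% ± 0.37 in Hezuo normal livers, and to 3.78% ± 0.39 in Bama cold and 3.56% ± 0.754 in Bama normal livers. In Hezuo the 3 cold libraries (4.30% to 4.83%) were above the 3 normal libraries (3.06% to 3.71%). In Bama the groups overlapped, Bama normal 2 being at 4.43%. Over both breeds the log2 ratio was higher by 0.26 under cold (exact two-sided permutation within breed, p = 0.065, adjusted 0.26 over the 8 tests on longer and shifted forms, which were chosen after the values were seen). Over 13 alternatives the adjusted p was 0.04 to 0.5, and 1 passed, without Bama normal 2 (0.34, adjusted p = 0.04). For cold over both breeds miR-99-z itself was at 0.06 (SE 0.08, edgeR adjusted p = 0.714), and miR-99a-5p, below it in the ratio, at -0.20.

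MiR-125-z amounted to 5.68% ± 0.262 of miR-125b in Hezuo cold and 5.49% ± 0.716 in Hezuo normal livers, against 4.95% ± 0.0716 in Bama cold and 4.45% ± 1.05 in Bama normal livers (SD, n = 3 each). The log2 ratio was higher by 0.26 in Hezuo (exact two-sided permutation p = 0.045, adjusted 0.26). Over 13 alternatives its adjusted p was likewise 0.04 to 0.5, and 1 passed, without Bama normal 2 (0.35, adjusted p = 0.04). MiR-100-z amounted to 1.16% to 2.32% of miR-100 over the 12 libraries, the highest again in Bama normal 2. In that library the 3′-extended forms of all 3 microRNAs were the highest of their group.

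**Figure D5:**
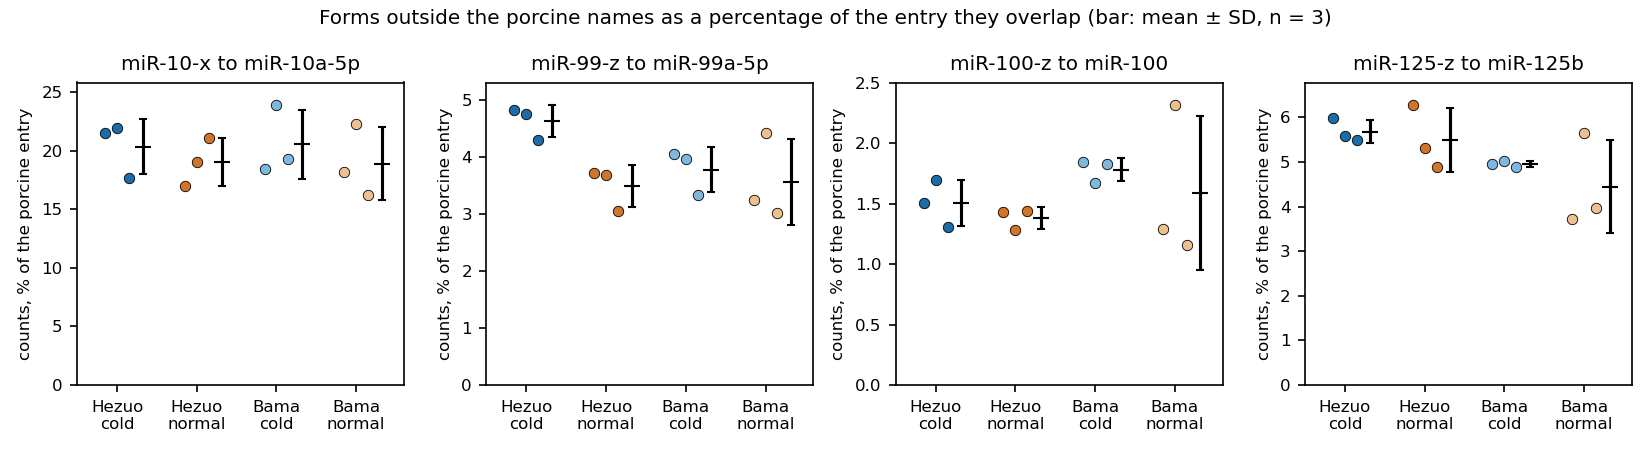
Counts of 4 entries with names without the porcine prefix as a percentage of the porcine entry they overlap, per library and by group, with the mean ± SD of 3 libraries as a bar (linear axes). MiR-10-x lies at 16.2% to 23.9% of miR-10a-5p, and Bama normal 2 is the highest of its group in all 4 panels.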

How the data were processed

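Small RNA of 18 to 30 nt from pig liver was sequenced in 12 libraries. The authors deposited 1 table of raw tag counts per entry, with TPM per library beside them (a count of 0 written as 0.01), per the file headers. The sources used here do not name aligner, database or genome build, and 2 lines of the file were emptied before use. The deposited TPM served only to give the share of listed tags, 84.3% to 88.2%. Counts were tested with edgeR 4.0.16 (R 4.3.3): TMM, filterByExpr, robust quasi-likelihood F tests, 1 coefficient per group, Benjamini-Hochberg adjustment over 460 entries, threshold 0.05. SEs come from the F statistics. Ratios within a library were tested by exact permutation of labels within breed or temperature (400 arrangements), in Python 3.11.15. Alternatives were DESeq2 1.42.0, limma-voom (limma 3.58.1), other scalings and filters, sums over the first 16 nt, each library left out, and a replicate block. The model was tested on simulated data. Members and lists were chosen with earlier results of these data known. Named in the text are all members, related entries, cluster neighbours, the 5 entries most like miR-99a-5p, miR-100 and miR-125b (mean of at least 10 CPM) and the most abundant marker per cell type. The entry most like miR-10b (miR-145-3p), miR-145-5p, miR-4331-5p and the tests on longer forms were chosen after values were seen. Of the listed markers, 3 of 5 epithelial and 1 of 4 muscle ones were tested, and all of the other lists.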

Additional observations from a re-analysis of the deposited data

How the results depend on the processing

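The member counts past the threshold for cold (over both breeds, in Hezuo, in Bama), for the difference of responses and for breed over both temperatures were the same under every alternative run (0, 0, 0, 0 and 1); the contrasts that use all groups have no fit of fewer groups. For Hezuo against Bama at normal temperature the count was 0, and 1 with upper quartile scaling, and 0 to 1 with 1 library left out. Under cold it was 1, and 0 with DESeq2 size factors, limma-voom, a fit of those groups only or the replicate block (miR-100 adjusted p = 0.0516, 0.053, 0.0587 and 0.0867), and 0 to 1 with 1 library left out, without any 1 of 8. The block joins pigs of 1 number, which share no stated origin: same-numbered libraries correlated at -0.06 to 0.14 and 3 of 6 were closest to their number. Of the planned ratios for breed 2 passed, and 0 to 2 with 1 library left out. For cold 0 passed throughout. With the replicate block 0 passed for breed (sign-change test, both adjusted p = 0.167). It allows fewer arrangements, and its smallest possible p is too large for 2 ratios alone to pass after adjustment over 8 tests. That loss was therefore set by the test and decides nothing about these ratios. Differences beyond 1 SE that turned sign were miR-10b without Bama cold 2 (cold over both breeds -0.029 to 1.09 over left-out libraries, in Bama -0.81 to 1.43, breed under cold -2.20 to 0.59), miR-125a over both breeds (-0.20 to 0.026, the last without Bama normal 3) and miR-99a-5p for breed at normal temperature (0.13, and -0.016 with library totals). Other scalings moved the median of all entries by over 0.1 for cold in Hezuo (0.13 with totals, -0.04 with TMM), for breed at normal temperature (-0.09 with totals and 0.19 with upper quartile, 0.05 with TMM) and for the difference of responses (0.15 with totals, -0.05 with TMM). The causes were not tested. PCR duplicates cannot be recognised, and the size of counting error beside the spread between pigs was not tested.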

Other observations

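The other 6 related entries carry other letters than the 7 members and were mostly scarce. MiR-125-y, of 21 nt, was the exception, at 69.7 ± 7.36 CPM in Hezuo cold, 70.2 ± 9.51 CPM in Hezuo normal, 70.7 ± 6.96 CPM in Bama cold and 71.6 ± 2.45 CPM in Bama normal livers (SD, n = 3 each). Its differences were -0.01 for cold over both breeds (SE 0.10, edgeR adjusted p = 0.967) and -0.02 for breed over both temperatures (SE 0.10, adjusted p = 0.928). MiR-10a-3p averaged 4.30 CPM, miR-99a-3p 1.30 CPM and miR-99-y 6.46 CPM, and none of them passed in either contrast. MiR-100-y had 59 counts over the 12 libraries. Of the related entries that overlap a member, miR-125-x had 404 counts and miR-10-z 11.

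MiR-10-y, which differs from miR-10a-3p by A3G, T9A and A10T counted from the 5′ end, had 32 counts in all and did not pass the filter on low counts. It had 2, 3 and 0 counts in Hezuo cold and 0, 0 and 0 in Hezuo normal livers, and 0, 14 and 1 in Bama cold and 8, 1 and 3 in Bama normal livers, where a count of 0 allows up to 3. Its highest libraries, Bama cold 2 and Bama normal 1, were the first and the third by the count of miR-10b (4280 and 1299). No test was made on these counts.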
